A study of Mus musculus with 4 samples.

Results

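The regions described here are stretches of mouse chromatin that were open in every one of 4 cell populations and that lie at the end of a gene. Peaks of the 4 deposited ATAC-seq peak lists on chromosomes 1 to 19 were pooled and joined where the next peak began at most 10 bp after the previous one ended. A joined region was kept if it held a peak of every list and lay within 1 kb of either end of a RefSeq protein-coding or long non-coding RNA (lncRNA) gene. Of 168348 joined regions, 17618 held a peak of every list and are called always open, and 11244 of these lay at gene ends. The other 6374 always open regions lay away from gene ends. The presence of a peak in each list and the distance to a gene end chose the regions, so neither is a finding about them: the members were chosen by these values.

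ATAC-seq maps open chromatin with a transposase that inserts sequencing adapters into accessible DNA. One library was made from each of 4 cell populations, each from 50000 cells, with 30 min of transposition at 37 °C and 12 cycles of PCR. The first is called the intermediate. It was grown from fibroblasts of a B6/129 background, labelled as the cross of a Rosa26-TdTomato B6 female with a Col1a-OSKM 129 male, on the way to neural stem cells. OSKM stands for the transcription factors Oct4, Sox2, Klf4 and Myc, which doxycycline switched on from day 1 to day 9 together with 4-hydroxytamoxifen and a JAK1 inhibitor at 0.5 µM. Cells in which a Nanog-driven CreER had switched on tdTomato were sorted, with no MEF feeders, so the library describes sorted cells only. Its title names day 9 and its source field day 6. The others were induced pluripotent stem cells (iPSC) with the strain label A12 (Mbd3 flox/-), v6.5 embryonic stem cells (ESC), and mouse embryonic fibroblasts (MEF) with the strain label A12 (Mbd3 flox/-). Library and population cannot be told apart with 1 library each, and strain labels match only between iPSC and MEF. No difference below has a replicate check, and no p-value is given.

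A gene's start is where its promoter lies, the DNA on which RNA polymerase II and its general factors assemble. In mammals most genes that every cell needs start in CpG islands, stretches rich in the dinucleotide CpG that mostly stay unmethylated and poor in nucleosomes in all tissues. Factors such as SP1, NRF1, the ETS family, NFY, YY1, the CREB family and BANP bind short motifs in such promoters, whereas genes used in few tissues more often have CpG-poor promoters, some with a TATA box.

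Each listed peak carries a height, a signal that the authors' processing wrote and that nothing in the files scales to library size. The lists held 130631 peaks in the intermediate, 128931 in iPSC, 125858 in ESC and 155064 in MEF on these chromosomes. The read depth behind them is unknown. Heights were therefore ranked within a library, as a percent rank among the 11244 regions, where 100 is the tallest. The labelled cell types were checked against markers at gene ends. Of 11 pluripotent-cell markers, 8 had an end peak in the intermediate, 11 in iPSC, 11 in ESC and 0 in MEF. Of 10 fibroblast markers, 4 had one in the intermediate, 5 in iPSC, 7 in ESC and 10 in MEF, and of 6 epithelial markers 6, 6, 6 and 1 did in the same order. End peaks were listed at 2 of 5 blood markers in the intermediate, iPSC and ESC and at 3 in MEF, and at 1 to 2 of 4 endothelial markers. Their part in any result below was not tested.

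Promoter sequences of 9 always open starts show what these regions look like as DNA. They run from 250 bases before to 50 bases after the start, in the direction of the gene, and come from RefSeq on GRCm38.p6, the assembly that mm10 names. The first belongs to the gene with the highest mean rank of height over the 4 libraries among regions with a start inside. It had 1 CpG and 36.3% G+C and no match to any motif searched. Each of the other 8 is the promoter of highest mean rank that holds a given motif, which stands in capitals on the strand shown or as its reverse complement.
Gm20594, chr6:79817781-79818080, plus strand: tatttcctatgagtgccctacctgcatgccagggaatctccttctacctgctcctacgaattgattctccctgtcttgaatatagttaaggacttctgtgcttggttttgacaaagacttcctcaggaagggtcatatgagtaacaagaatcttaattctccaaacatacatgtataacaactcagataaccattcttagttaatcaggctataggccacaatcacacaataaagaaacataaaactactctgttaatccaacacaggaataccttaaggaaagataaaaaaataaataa
Hmgcs1, SP1 GC box, chr13:119690101-119690400, plus strand: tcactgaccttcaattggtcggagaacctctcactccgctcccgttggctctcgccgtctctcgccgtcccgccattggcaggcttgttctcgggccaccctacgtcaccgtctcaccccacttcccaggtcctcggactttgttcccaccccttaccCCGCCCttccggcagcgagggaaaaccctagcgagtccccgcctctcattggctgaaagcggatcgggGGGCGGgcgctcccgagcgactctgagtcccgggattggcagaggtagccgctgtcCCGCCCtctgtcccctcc
Mrpl17, NRF1, chr7:105811038-105811337, minus strand: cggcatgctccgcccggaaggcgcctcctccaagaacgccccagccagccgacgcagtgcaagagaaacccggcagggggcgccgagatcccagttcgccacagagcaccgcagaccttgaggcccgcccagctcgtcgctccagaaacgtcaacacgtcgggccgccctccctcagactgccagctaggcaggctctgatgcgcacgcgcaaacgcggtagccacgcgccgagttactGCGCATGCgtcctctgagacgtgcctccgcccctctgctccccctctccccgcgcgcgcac
Cggbp1, ETS, chr16:64851751-64852050, plus strand: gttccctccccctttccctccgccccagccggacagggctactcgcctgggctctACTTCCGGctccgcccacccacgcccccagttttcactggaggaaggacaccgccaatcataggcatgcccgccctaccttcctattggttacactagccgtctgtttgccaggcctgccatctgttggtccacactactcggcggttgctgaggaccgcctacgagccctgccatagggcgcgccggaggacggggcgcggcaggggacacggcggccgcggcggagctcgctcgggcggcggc
Cnot3, YY1, chr7:3645019-3645318, plus strand: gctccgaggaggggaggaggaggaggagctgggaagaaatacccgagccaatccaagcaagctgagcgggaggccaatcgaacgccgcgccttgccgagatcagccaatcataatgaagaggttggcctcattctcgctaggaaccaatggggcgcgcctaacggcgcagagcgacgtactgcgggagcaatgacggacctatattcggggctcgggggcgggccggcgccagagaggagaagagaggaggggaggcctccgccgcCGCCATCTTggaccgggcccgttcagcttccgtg
Cep57, CRE, chr9:13827004-13827303, minus strand: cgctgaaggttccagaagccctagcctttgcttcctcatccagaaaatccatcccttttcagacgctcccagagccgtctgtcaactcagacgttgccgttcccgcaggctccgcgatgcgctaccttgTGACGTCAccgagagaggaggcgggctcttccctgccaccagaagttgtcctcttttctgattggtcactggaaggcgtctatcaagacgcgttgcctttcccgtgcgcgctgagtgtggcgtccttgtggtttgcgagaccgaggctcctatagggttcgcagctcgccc
Msantd4, E-box, chr9:4376302-4376601, plus strand: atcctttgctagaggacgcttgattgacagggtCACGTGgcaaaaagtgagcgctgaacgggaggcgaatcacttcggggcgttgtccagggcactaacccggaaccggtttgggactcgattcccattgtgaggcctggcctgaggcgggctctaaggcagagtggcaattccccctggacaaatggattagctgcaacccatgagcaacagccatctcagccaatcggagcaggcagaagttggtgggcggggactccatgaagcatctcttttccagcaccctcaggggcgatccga
Dcaf6, BANP, chr1:165460414-165460713, minus strand: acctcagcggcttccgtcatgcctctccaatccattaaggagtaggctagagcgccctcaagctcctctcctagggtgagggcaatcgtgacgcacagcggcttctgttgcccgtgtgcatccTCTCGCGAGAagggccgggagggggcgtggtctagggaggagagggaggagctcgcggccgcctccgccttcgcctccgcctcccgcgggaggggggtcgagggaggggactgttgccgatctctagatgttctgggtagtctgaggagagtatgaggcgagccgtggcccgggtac
Map9, TATA box, chr3:82357822-82358121, plus strand: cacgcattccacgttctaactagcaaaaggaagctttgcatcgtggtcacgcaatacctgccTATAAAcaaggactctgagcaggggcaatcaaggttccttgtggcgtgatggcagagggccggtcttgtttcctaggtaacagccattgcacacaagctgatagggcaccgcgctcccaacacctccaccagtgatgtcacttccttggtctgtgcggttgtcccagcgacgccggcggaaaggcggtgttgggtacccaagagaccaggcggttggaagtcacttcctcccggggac
The 8 promoters with a motif in capitals held 15 to 35 CpG and 56.7 to 69.7% G+C. Hmgcs1 encodes the cytosolic synthase at the head of cholesterol synthesis, Mrpl17 a protein of the mitochondrial ribosome and Cnot3 a subunit of the deadenylase that shortens mRNA tails. Cep57 is a centrosome protein, Map9 a microtubule-associated protein, and Dcaf6 a substrate receptor of a ubiquitin ligase. The Hmgcs1 promoter held the SP1 letters 3 times, with first bases at -92, -24 and 33 from the start. In Cnot3 the YY1 letters began 17 bases after the start. The marked run in Dcaf6 is made of 2 overlapping BANP matches, at -127 and -125. In Map9 the TATA letters began at -188.

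Always open regions lay at gene ends far more often than regions open in fewer libraries. The share at gene ends was 8.61% (Wilson 95% interval 8.44 to 8.79) of 102138 regions open in 1 library, 11.4% (11.1 to 11.7) of 32161 open in 2, 19.2% (18.6 to 19.8) of 16431 open in 3, and 63.8% (63.1 to 64.5) of 17618 open in all 4. These intervals cover counting error over regions only. The number of libraries and the distance to a gene end both belong to the rule, so these shares are a description only. Regions open in more libraries were also wider, with medians of 700, 960, 1140 and 1650 bp in that order. A wider region reaches more gene ends, and the part of width in the share was not tested.

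**Figure D1:**
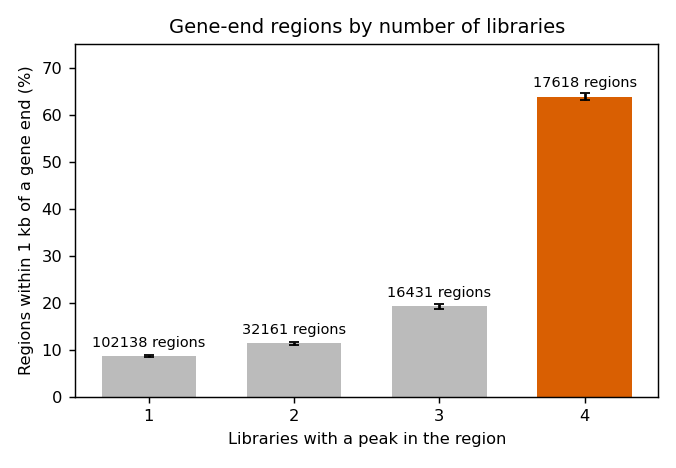
Share of joined regions that lie within 1 kb of a gene end (y axis, %) by the number of libraries with a peak in the region (x axis), with Wilson 95% intervals as error bars and the number of regions above each bar. The bar for regions open in all 4 libraries, at 63.8%, stands above those for 1, 2 and 3 libraries, at 8.61, 11.4 and 19.2%.

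Most protein-coding genes had such a region, and most lncRNA genes had none. An always open region lay at 11396 of 20661 protein-coding genes, 55.2% (54.5 to 55.8), and at 2362 of 12408 lncRNA genes, 19% (18.4 to 19.7). A region with a peak in the single library, whatever the others held, lay at the end of 64.0% of protein-coding genes in the intermediate, 67.0% in iPSC, 68.7% in ESC and 66.1% in MEF. Of the 11601 genes with an end region in every library, 205 had their peaks in separate regions, and 4962 genes had an end region in no library. Protein-coding genes with an always open region had a median length of 23.3 kb, against 10.9 kb for those without. The share of protein-coding genes per chromosome ran from 45.4% on chromosome 7 to 66% on chromosome 12.

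Gene families named by their symbol covered the whole range. Among families of at least 30 protein-coding genes, the highest shares were found for Cdc (cell division cycle) genes, 30 of 32 or 93.8%, Ube genes of the ubiquitin pathway, 36 of 39 or 92.3%, and Cep centrosome genes, 35 of 38 or 92.1%. Among other families with high shares were Rps and Mrpl genes, mostly of ribosomal proteins, 36 of 41 and 43 of 49, Kif kinesins, 32 of 37, Rab small GTPases, 54 of 65, and Vps genes of vesicle sorting, 29 of 35. Solute carriers (Slc), at 189 of 362 or 52.2%, lay near the 55.2% of all protein-coding genes. Families of several other kinds lay at the low end. Genes whose symbols begin with Il, mostly interleukins and their receptors, had an always open region in 18 of 78 cases, cytochromes P450 (Cyp) in 14 of 99, serine proteases (Prss) in 5 of 39, hair keratin-associated proteins (Krtap) in 1 of 56 and beta-defensins (Defb) in 0 of 42. Members of one family can sit in one cluster and share sequence, so they are not independent of each other.

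The regions were wider than always open regions away from gene ends, and most held a start. Nearness to a gene end was part of the rule, so nearness to starts is in part given by it. They had a median width of 1790 bp (5th to 95th percentile 1090 to 3550) and covered 22.4 Mb, against a median of 1360 bp and 9.86 Mb for always open regions away from gene ends. A RefSeq start lay inside 8341 of the 11244 regions, 74.2% (73.4 to 75), and within 1 kb of 8585, 76.4%. A further 1923 regions, 17.1%, lay at genes with no entry in the promoter table. Starts of both strands lay inside 1650 regions, 14.7% (14.0 to 15.3), the layout of a bidirectional promoter. Their median heights were 122 in the intermediate, 132 in iPSC, 133 in ESC and 139 in MEF, against 104, 118, 118 and 119 for all regions with a start inside. Seen from the starts, 9873 of 20084 protein-coding starts, 49.2%, and 1631 of 11311 lncRNA starts, 14.4%, lay inside an always open gene-end region.

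The point of highest signal was compared between the 4 populations. Between the tallest peaks of any pair of libraries, the median distance of the summits was 40 to 50 bp, and 72.6 to 79.9% of regions had them within 100 bp. Away from gene ends the medians were 40 to 60 bp. Summits of all 4 libraries lay within 100 bp of each other in 5723 regions, 50.9%, and more than 1000 bp apart in 729, 6.48%. In 6691 regions with a start on 1 strand, the median summit lay before the start, at -43 bp in the intermediate, -49 bp in iPSC, -45 bp in ESC and -45 bp in MEF. In each library 66.3 to 69.3% of summits lay before the start and about 57% within 100 bp of it (57.0% in the intermediate, 56.9% in iPSC, 57.6% in ESC and 57.4% in MEF). The libraries thus differed by less than 10 bp in their median position.

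CpG content separated always open starts from the rest. Promoters whose start lay inside an always open gene-end region held a median of 23 CpG per 300 bases and 62.7% G+C, over 11504 promoters. Promoters of genes with end peaks in 1 to 3 libraries, or in separate regions, held 5 CpG and 51.3% G+C, those of genes with no end peak held 3 CpG and 45.7%, and all 31395 promoters 7 CpG and 53%. Of all 31395 starts 36.6% lay inside an always open gene-end region. That share was 2.71% (2.43 to 3.02) with 0 to 4 CpG, 16.4% with 5 to 9, 50.1% with 10 to 14, 71.9% with 15 to 19, 80.4% with 20 to 24, 82.6% with 25 to 29 and 84.3% (83.1 to 85.4) with 30 or more. The steep part of the curve lay between 5 and 19 CpG. Start sites of lncRNA genes were inside less often than those of protein-coding genes from 10 to 14 CpG, at 23.7% against 60.4%, and slightly more often with 30 or more, at 87.1% against 83.8%.

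**Figure D2:**
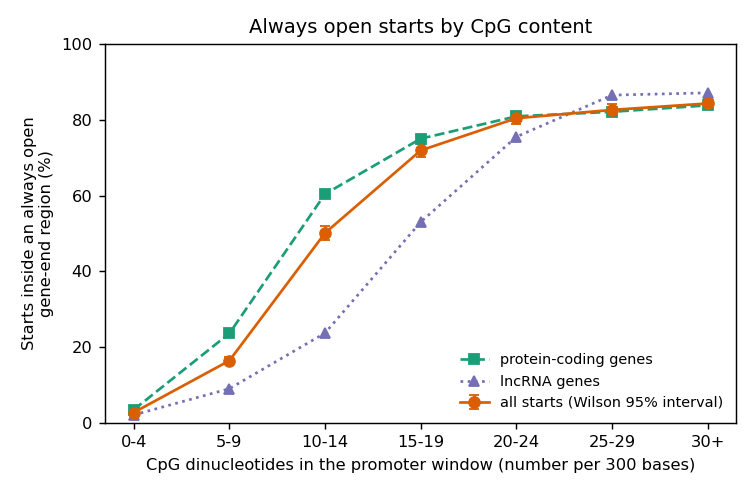
Share of RefSeq starts that lie inside an always open gene-end region (y axis, %) by the number of CpG in the promoter window of 300 bases (x axis), for all starts with Wilson 95% intervals, protein-coding genes and lncRNA genes. The share climbs to 84.3% of all starts with 30 or more CpG, against 2.71% with 0 to 4, and the lncRNA line lies below the protein-coding line up to 24 CpG.

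Most motifs of promoter-binding factors were more frequent in always open promoters, and the TATA letters less frequent. Motifs were searched as exact letters on both strands: SP1 GC box GGGCGG, NRF1 GCGCATGC, ETS CCGGAAGT, YY1 AAGATGGCG, NFY CCAAT, CRE TGACGTCA, E-box CACGTG, BANP TCTCGCGA, ZNF143 ACTACAATT, TATA box TATAAA, AP-1 TGANTCA and OCT4 ATGCAAAT. None of these runs of letters contains another. In promoters of all genes with an always open gene-end region, the SP1 letters stood in 61.5% (60.7 to 62.3), against 7.9% for genes with no end peak and 36% of all promoters. The ETS letters stood in 7.34%, against 0.925% and 3.95%, those of NRF1 in 4.9%, against 0.602% and 2.69%, and those of BANP in 1.98%, against 0.151% and 0.956%. For YY1 the shares were 2.61%, 0.301% and 1.39%, for the CRE 3.07%, 0.592% and 1.83%, for the E-box 9.76%, 4.23% and 7.14%, and for ZNF143 0.68%, 0.172% and 0.408%. The CCAAT box stood in 37.7%, 39.5% and 37.3% of promoters without regard to CpG content. The TATA letters stood in 7.19%, against 22.9% and 13.6%, the AP-1 letters in 4.83%, against 10.6% and 7.85%, and the OCT4 letters in 1.41%, against 2.3% and 1.75%. GC-rich letters occur more often in GC-rich DNA, so these shares move with the base composition above.

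**Figure D3:**
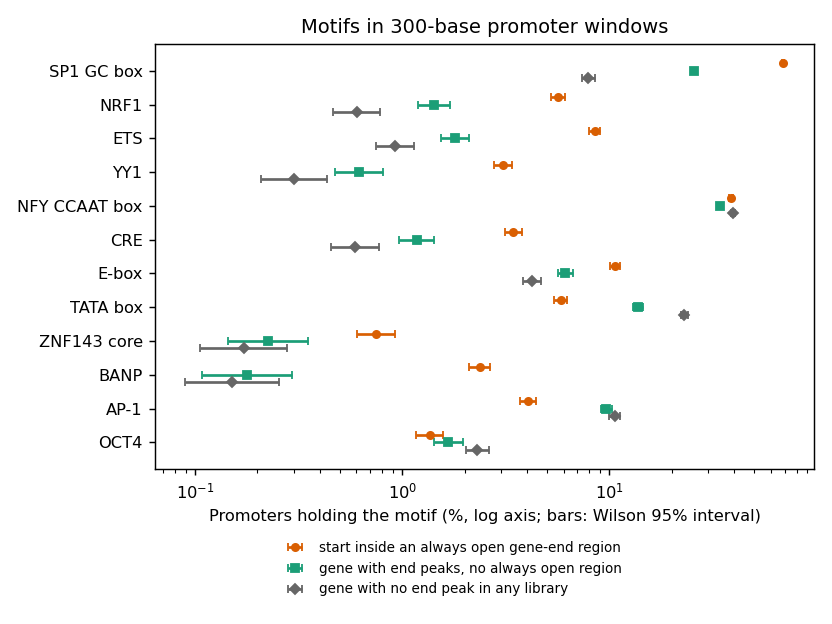
Share of promoters of 300 bases that hold each motif (x axis, %, log axis), with Wilson 95% intervals, for starts inside an always open gene-end region, genes with end peaks but no such region, and genes with no end peak. The SP1, NRF1, ETS, YY1, CRE and BANP points for always open starts lie to the right of the others, the TATA and AP-1 points lie to the left, and the 3 CCAAT points lie close together.

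Promoters were also compared within groups of like CpG content. Among promoters with 20 or more CpG, the start was inside an always open gene-end region for 92.2% (90.0 to 93.9) of 732 with the ETS letters, against 81.8% (80.9 to 82.6) of those without. For YY1 it was 93% of 272, against 82.3%, and for BANP 92.7% of 246, against 82.4%. The SP1 letters made less difference there, at 83.1% (82.2 to 84.0) against 80.9% (78.9 to 82.7), and the TATA letters gave 83.4% (78.9 to 87.1) against 82.7% (81.8 to 83.5). With 10 to 19 CpG, the share was 88.7% (77.4 to 94.7) of 53 promoters with the ZNF143 letters, against 60.3%, 85.1% (72.3 to 92.6) of 47 with BANP, against 60.4%, 74% of 361 with ETS, against 59.6%, and 68.1% of 2097 with CCAAT, against 55.7%. CCAAT promoters were also inside more often with 20 or more CpG, at 86.9% (85.6 to 88.1) against 80.6% (79.6 to 81.6), where over all CpG levels it was 37.8% against 36%. For the OCT4 letters with 10 to 19 CpG the share was 60.7%, against 60.6% without them. With 0 to 9 CpG, 21.8% (15.9 to 29.1) of 147 promoters with the ETS letters were inside, against 7.07%, and 4.31% of 3505 with TATA, against 7.91%. Over all CpG levels the BANP letters had the highest share of any motif searched, 271 of 300 or 90.3% (86.5 to 93.2).

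Positions of the letters differed between motifs. In always open starts the YY1 letters began at a median of 7 bases after the start, and 55.3% of 365 matches lay after it. The ETS letters lay at a median of -32, with 22.1% after the start, and SP1 at -66, NRF1 at -55, BANP at -52, CRE at -50 and CCAAT at -86, with 7.04 to 12.9% after it. Other starts gave like medians for SP1 (-63), NRF1 (-51), ETS (-32) and CRE (-57), while the YY1 letters there lay at a median of -13, with 42.4% of 85 matches after the start. A few always open starts were CpG-poor. The TATA letters stood in 45 of the 320 with under 5 CpG, 14.1%, against 625 of 11184 with more, 5.59%, and 2717 of 11494 CpG-poor starts outside such regions, 23.6%.

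Genes for the upkeep of every cell nearly always had an always open gene end. Over 12 lists of such genes, 488 of 548 genes had one, 89.1% (86.2 to 91.4), against 55.2% of all protein-coding genes. The transcription machinery had 34 of 35, with Taf5 as the exception, and Taf10, a subunit of TFIID, as its tallest (heights 438 in the intermediate, 236 in iPSC, 217 in ESC and 208 in MEF). The promoter-binding factors, only some of which read the motifs above, had 26 of 31, without Gabpb1, Ets1, Nfyc, Mlx and E2f6. In splicing it was 43 of 47, without Sf3b3, Snrpd1, Snrpn and Srsf12. Snrpn is an imprinted gene.

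Protein synthesis and turnover followed the same pattern. Cytosolic ribosomal proteins had an always open gene end in 71 of 77 cases, mitochondrial ribosomal proteins in 69 of 78 and translation factors in 57 of 66. Rpl15 shares its region with the neighbouring gene Nkiras1, and had peak heights of 441 in the intermediate, 469 in iPSC, 307 in ESC and 324 in MEF. Mrpl17 had 503, 571, 410 and 348 in that order. The proteasome had 33 of 38, and the 5 others were Psma6, Psma8, Psmb11, Psmb5 and Psmb8. Psma8, Psmb11 and Psmb8 encode subunits of the testis, thymus and immune forms of the proteasome. Heat shock proteins and chaperones had 22 of 22, a share of which the interval runs from 85.1 to 100%, led by Hsp90b1, the chaperone of the endoplasmic reticulum, with 419, 487, 315 and 442.

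The respiratory chain and ATP synthase had 78 of 89 genes with an always open end. Among the 11 others were Cox6a2, Cox7b2, Cox8b and Cox8c, forms of cytochrome oxidase subunits used in muscle or testis. Atp5j, a subunit of the synthase, shares its region with Gabpa, an ETS factor. Glycolysis had 12 of 14, without Hk1 and Ldha, and its tallest was the hexokinase Hk2 (300 in the intermediate, 262 in iPSC, 233 in ESC and 243 in MEF). DNA replication had 36 of 41, without Orc1, Orc4, Rfc1, Pola2 and Fen1. CTCF and cohesin, which fold the genome into loops, had 8 of 11, without Rad21, Stag1 and Nipbl. That share, 72.7%, has an interval from 43.4 to 90.3%, which holds the share of all genes. Clustered histone genes had 67 of 69 in 45 regions, and the exceptions were H1f7 and H1f8, linker histones of germ cells. Zinc-finger genes named Zfp had 302 of 386, 78.2%.

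**Figure D4:**
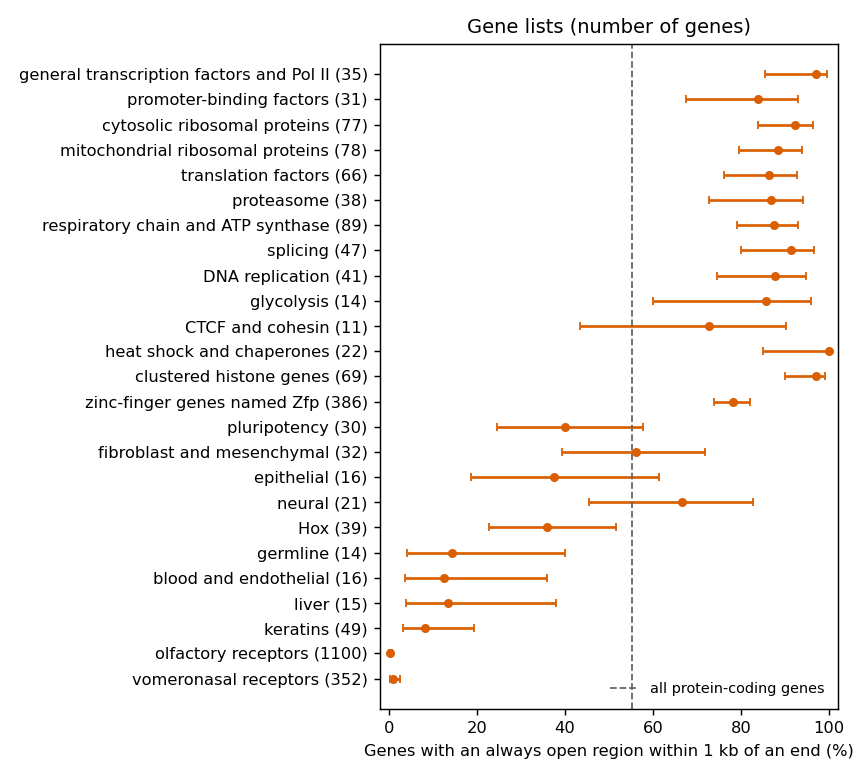
Share of the genes of 25 lists with an always open region within 1 kb of an end (x axis, %), with Wilson 95% intervals and the number of genes in brackets; the dashed line marks the 55.2% of all protein-coding genes. The lists of the cell's upkeep lie to the right of the line, and those of germline, blood, liver, keratin and receptor genes lie to its left.

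Receptor, keratin, liver, blood, endothelial and germline genes had few always open ends. Only 2 of 1100 olfactory receptors had one, Olfr9 and Olfr94, and only 3 of 352 vomeronasal receptors, Vmn1r4, Vmn2r29 and Vmn2r87. Olfr94 and Vmn1r4 share their regions with Ubd and Nt5c3. Among 49 keratins, it was Krt8, Krt10, Krt19 and Krt88, and among 15 liver genes Apoa1 and Apoa2, of which Apoa2 shares its region with Tomm40l, a gene of mitochondrial protein import. Blood and endothelial genes had 2 of 16. Cd68, a macrophage marker, shares its region with Mpdu1, and Tek, the receptor of angiopoietins, had its own region with peak heights of 141 in the intermediate, 84 in iPSC, 29 in ESC and 35 in MEF. Germline genes had 2 of 14, the RNA-binding factors Dazl and Nanos2. Dazl had peak heights of 62 in the intermediate, 534 in iPSC, 236 in ESC and 177 in MEF, so it ranked at 26.4, 97.8, 92.2 and 75.2 of 100 in that order.

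Heights of always open gene ends were above those of other always open regions in every library. Their medians were 97 in the intermediate, 111 in iPSC, 111 in ESC and 110 in MEF, against 64, 73, 64 and 60 away from gene ends. The regions held 24.3% of all listed peaks in the intermediate, 20.8% in iPSC, 23.6% in ESC and 22.3% in MEF. Of the 5000 tallest peaks of a list they held 56.1%, 52.8%, 68.9% and 70.6% in the same order. Presence in all lists chose the regions, so these values are a description only.

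By mean rank over the libraries the first was at the lncRNA gene AY036118 on chromosome 17 (39842471 to 39849310), with peak heights of 3930 in the intermediate, 3314 in iPSC, 7202 in ESC and 15595 in MEF. The next, at the 3′ end of Lars2, a mitochondrial leucyl-tRNA synthetase (chromosome 9, 123461301 to 123462620), had 1117, 1266, 2720 and 5636. Gm20594, for which RefSeq gives the synonym Mtrnr2l, had 1910, 3272, 2090 and 527 (chromosome 6, 79817581 to 79818900), and Kpna1, an importin, 739, 870, 1639 and 3654. With Gm39429 these are the 5 regions over 500 high in every library. By height, which is not scaled between libraries, MEF was the highest at AY036118, Lars2, Kpna1 and Gm39429 and the lowest at Gm20594. By rank, AY036118 and Lars2 stood at 100 in every library, and Gm20594 stood at 99.8 in MEF. How reads that match several places were counted is not given in the sources used here. Below them stood promoters with more even heights. Zbtb20, a zinc-finger factor, had 592 in the intermediate, 1016 in iPSC, 479 in ESC and 659 in MEF, and Hmgcs1 had 654, 900, 421 and 618. Cggbp1 with Zfp654, the ubiquitin ligase Pja2, the sugar transferase Rxylt1, and Dcaf6 with Mpc2, a carrier of pyruvate into mitochondria, completed the 10 tallest.

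The order of heights was shared in part. Spearman's rho across the 11244 regions was 0.761 between the intermediate and ESC, 0.732 between the intermediate and MEF, and 0.607 between the intermediate and iPSC. It was 0.714 for iPSC and ESC, 0.515 for iPSC and MEF, and 0.723 for ESC and MEF. Each was higher than over always open regions away from gene ends, where rho was 0.508, 0.395, 0.382, 0.604, 0.272 and 0.387 in the same order. These are descriptions across regions, which share libraries, depth and base composition. The rank of a region ranged over a median of 29.6 points across the libraries. In 993 regions, 8.83%, it ranged over at most 10 points, and in 1754, 15.6%, over 50 or more.

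Height ranks also moved with base composition. In 5 groups of equal size by promoter G+C, regions with the lowest G+C (28 to 55.2%) had median ranks of 46 in the intermediate, 41.1 in iPSC, 39.1 in ESC and 44.8 in MEF. Ranks were highest in the fourth group (64.7 to 69.7% G+C), at 60.3, 59.2, 63.6 and 63.5. Among motifs, the 73 regions with the ZNF143 letters had the highest median ranks, 73.9, 60.8, 73.1 and 72.1, against 53.9, 53, 54.1 and 54.7 over all regions with a start inside. CCAAT promoters, 3574 regions, ranked at 65.7, 59.4, 66.6 and 66.4, and BANP promoters, 209 regions, at 64.3, 57.4, 69.8 and 64.3. Promoters with the TATA letters ranked lower, at 49.4, 47.6, 44 and 47.9.

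Some always open regions stood far above or below, in 1 library, the median of the other 3. Such a region can rank alike in several libraries and then counts for each of them. Gm4861 ranked at 9.13 in the intermediate, 82 in iPSC, 86.7 in ESC and 7.65 in MEF. A rank at least 50 points above the median of the other 3 was found in 112 regions for the intermediate, 0.996% of 11244, against 2.01% of all always open regions, and a rank 50 points below in 99, 0.88% against 1.24%. For iPSC it was 348 above, 3.09% against 2.72%, and 91 below, 0.809% against 1.20%. ESC had 52 above (0.462% against 0.670%) and 47 below (0.418% against 0.647%). MEF had 92 above (0.818% against 1.59%) and 240 below (2.13% against 2.70%). With the tallest peak, only the share above in iPSC was larger at gene ends than over all always open regions. The shares over all always open regions used ranks redone among the 17618, which include the 11244. They were not computed for the other measures of height below. Several of the counts above rest on taking the tallest peak of a region. With the peak nearest to the gene end, the intermediate had 199 above and 232 below, iPSC had 142 below, ESC had 197 above and 153 below, and MEF had 166 above. With the sum of peak heights, the intermediate had 190 below, iPSC 172 below, ESC 92 above and 84 below, and MEF 158 above. Promoters that stood above in the intermediate held a median of 8 CpG and 54% G+C in 57 regions, and those that stood below in MEF held 19 CpG and 63.2% in 166 regions, against 22 CpG and 62.3% for all 8341 with a start inside.

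Among the regions that stood furthest above the others in MEF, Cavin1, a coat protein of caveolae (chromosome 11, 100968631 to 100971200), had peak heights of 30 in the intermediate, 33 in iPSC, 111 in ESC and 210 in MEF. Tpm1, a tropomyosin of actin filaments, had 47, 30, 42 and 186, and Serpina3n, a secreted protease inhibitor, 72, 64, 30 and 332. Their MEF ranks were 77.6 and 96.5, and their ranks in the other libraries lay between 0.938 and 34. Btbd19 and Nim1k completed the 5. The 5 that stood lowest in MEF were Scn9a, a voltage-gated sodium channel (178 in the intermediate, 537 in iPSC, 229 in ESC and 29 in MEF), Hecw1, a ubiquitin ligase (209, 572, 223 and 29), the cell-junction receptor Cxadr (226, 356, 226 and 32), the fatty-acid elongase Elovl7 (343, 332, 187 and 35), and Phyhipl. At Cxadr and Elovl7 the intermediate ranked at 88.3 and 97.1, with iPSC at 92.8 and 91.7, ESC at 90.8 and 82.7, and MEF at 3.15 and 4.91.

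The intermediate stood apart at other genes. Above the other libraries were the glycosyltransferase B3galnt1, with 238 in the intermediate, 65 in iPSC, 38 in ESC and 39 in MEF (chromosome 3, 69597901 to 69600200), and Eif3k, a subunit of the initiation factor eIF3, with 197, 38, 30 and 44. Hspb2 had 175, 32, 24 and 133, and Plod1, which hydroxylates lysines of collagen, 247, 32, 59 and 95. Below them were Cers4, a ceramide synthase, with 28, 501, 243 and 195, and the ganglioside synthase St3gal5 with 50, 330, 230 and 137. Ndst3 and Gm4861 followed.

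In iPSC the tall regions were those of Pdlim3, a muscle protein of the Z-disc (36 in the intermediate, 334 in iPSC, 101 in ESC and 32 in MEF), Tafa4 (42, 409, 126 and 47), the prostaglandin dehydrogenase Hpgd (39, 309, 89 and 31), Galnt13 and 4930444P10Rik. The low ones were Fv1, a restriction factor against murine leukaemia virus, with 448, 47, 158 and 282, then Pramel12, Gm32687, Zfp719 and Emp1. In ESC the tall ones were Gm4861, Olfm3, Slc35f1, Set and 1500009L16Rik, and at the first 3 of these iPSC stood high too. Set, an inhibitor of protein phosphatase PP2A, had 97 in the intermediate, 59 in iPSC, 189 in ESC and 49 in MEF. The low ones were Cd44, Emp1, Dsc2, Trim16 and Aga. The hyaluronan receptor Cd44 had 73, 223, 44 and 217, and the epithelial membrane protein Emp1 146, 35, 26 and 158.

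Upkeep genes ranked lower in iPSC than in the other libraries. Regions at cytosolic ribosomal proteins had a median rank of 56.3 in the intermediate, 30.2 in iPSC, 50.2 in ESC and 54.2 in MEF, over 82 regions. Histone regions had 56.3, 27, 41.2 and 48.4, mitochondrial ribosomal proteins 46.6, 33.6, 44 and 50.2, and the proteasome 47.9, 38, 48.3 and 55.1. DNA replication genes ranked at 75, 60.8, 71.8 and 76.5, and heat shock genes at 75.9, 61.9, 78.2 and 79.9, the highest of the upkeep lists in ESC and MEF. In all 13 lists from the transcription machinery to histones the iPSC median was the lowest of the 4. This was not particular to upkeep genes. It also held for Zfp zinc-finger genes, at 55.3, 45, 48.1 and 56.2 over 310 regions, and for Hox genes and keratins. In the remaining lists another library had the lowest median, and for pluripotency genes iPSC had the highest, at 75.9. These are the same 11244 regions ranked within each library, so other regions took the higher iPSC ranks.

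**Figure D5:**
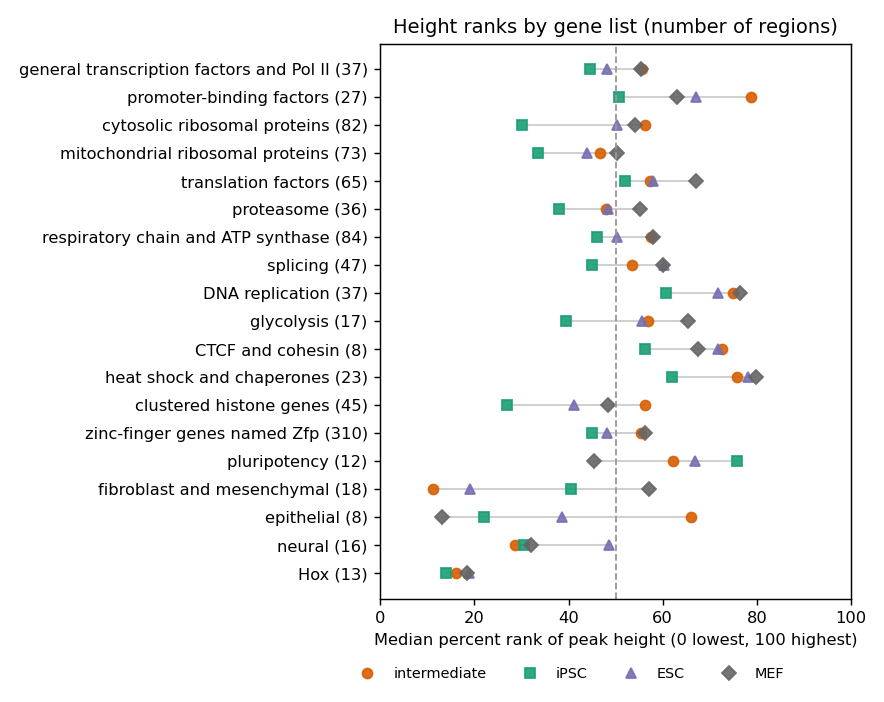
Median percent rank of peak height (x axis, 0 lowest and 100 highest among the 11244 regions of a library) of the always open gene-end regions of each list with 8 or more regions, for the intermediate, iPSC, ESC and MEF; the dashed line marks 50 and the number of regions is in brackets. The iPSC point lies left of the others in the lists of the cell's upkeep and in those of Zfp and Hox genes. Fibroblast and epithelial genes have the widest spread.

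Fibroblast genes that were always open had their lowest median rank in the intermediate and their highest in MEF. Of 32 fibroblast and mesenchymal genes, 18 had an always open end, 56.2% (39.3 to 71.8), against 55.2% of all protein-coding genes. With the taller 50% of each list it was 9 of 32, against 49.5% of all protein-coding genes. Their regions had median heights of 43.5 in the intermediate, 93 in iPSC, 66.5 in ESC and 125 in MEF, and median ranks of 11.2, 40.5, 19.1 and 57.2. Col1a2, a chain of type I collagen, had 33 in the intermediate, 169 in iPSC, 48 in ESC and 128 in MEF. Fbn1, the fibrillin of elastic fibres, had 30, 80, 51 and 122. Sparc, a matrix protein, had 50, 24, 71 and 168, and Lox, which cross-links collagen, 46, 69, 38 and 178. At Fbn1, Sparc and Lox the MEF rank was the highest of the 4, and at Col1a2 that of iPSC was. Other genes of the list did not rank highest in MEF. Fn1, the fibronectin of the matrix and the tallest of the list by mean rank, had 79, 257, 178 and 155, with ranks of 39.1, 85.5, 80.2 and 68.8. Ranks in iPSC were above those in MEF at the matrix protease Mmp2 (57 in iPSC and 40.5 in MEF) and the intermediate filament Vim (78.3 in iPSC and 74.7 in MEF), and at the collagen Col5a1 the ESC rank was highest, at 73.4, with 63.5 in MEF. Among the transcription factors of mesenchymal cells, Snai1 had 166, 92, 151 and 186, Snai2 113, 135, 117 and 106, Twist1 38, 83, 62 and 135, and Zeb2 47, 245, 114 and 49. Snai2 was nearly level, and Zeb2 was highest in iPSC. The lists were written with earlier results of these data known, and the Col1a locus carries the OSKM transgene of the intermediate.

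Epithelial genes that were always open ranked highest in the intermediate and lowest in MEF by their median. Of 16 genes, 6 had an always open end, 37.5% (18.5 to 61.4), an interval that holds the 55.2% of all protein-coding genes. Their 8 regions had median ranks of 66.1 in the intermediate, 22 in iPSC, 38.5 in ESC and 13 in MEF. Epcam, an epithelial adhesion molecule, had peak heights of 156 in the intermediate, 99 in iPSC, 138 in ESC and 36 in MEF. The tight-junction protein Cldn3 had 178, 125, 122 and 54, the splicing factor Esrp2 196, 69, 107 and 41, and the keratin Krt8 132, 48, 81 and 59. Cldn6 had 59, 58, 68 and 32. Crb3, a polarity protein that shares its region with Slc25a23, had 130, 191, 132 and 116. MEF had the lowest rank at Epcam, Cldn3, Esrp2, Cldn6 and Crb3, and iPSC at Krt8.

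Of the pluripotency genes, the 11 pluripotent-cell markers, with 0 end peaks in MEF, could not enter it. Those with an always open end were 12 of 30, 40% (24.6 to 57.7), an interval that holds the 55.2% of all protein-coding genes. They were Sox2, Klf2, Klf4, Klf5, Tfcp2l1, Tbx3, Lin28b, Utf1, Tet1, Tet2, Lefty1 and Trim28. Nanog and Pou5f1 were not among them. Klf5, a Krüppel-like factor, was the tallest, with peak heights of 374 in the intermediate, 550 in iPSC, 294 in ESC and 243 in MEF. Sox2, which pairs with Oct4, had 108, 173, 135 and 71, and Lin28b, which blocks let-7 maturation, 99, 282, 124 and 34. The chromatin factor Utf1 had 68, 87, 150 and 32. At Sox2, Lin28b and Utf1 the MEF rank was the lowest of the 4. Klf2 was tall in all 4, at 247, 184, 260 and 282. Tbx3, a T-box factor of stem cells and limb, had 139, 118, 185 and 259 and ranked highest in MEF. Trim28, the corepressor of zinc-finger repressors, was nearly level at 201, 216, 233 and 212.

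Neural and Hox genes had always open ends of low rank. Among 21 neural genes 14 had an always open end, 66.7% (45.4 to 82.8), an interval that holds the 55.2% of all protein-coding genes. Their regions had median ranks of 28.6 in the intermediate, 30.5 in iPSC, 48.6 in ESC and 32 in MEF. Map2, a microtubule protein of dendrites, had peak heights of 226, 698, 213 and 153, and the neural factor Pou3f2 102, 243, 164 and 32. Map2 ranked high, at 88.3, 99.2, 88.5 and 68 in the same order. Hes1, a target of Notch, was nearly level between the intermediate at 188, ESC at 175 and MEF at 184, with iPSC at 116. Nes, the intermediate filament of neural stem cells, was low in all, at 43, 56, 86 and 48. Of 39 Hox genes 14 had an always open end, 35.9% (22.7 to 51.6), against 55.2% of all protein-coding genes. They lay in 13 regions with median ranks of 16, 14, 18.8 and 18.5. Hoxc13 was the tallest, with 104, 176, 237 and 69, and Hoxb7 with Hoxb8 had 29, 33, 39 and 54. Hox genes lie in clusters, and a region can serve more than 1 of them.

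lncRNA genes mostly reached the class beside a protein-coding gene. Of the 2362 lncRNA genes with an always open end, 1486 shared the region with a protein-coding gene end, and 898 regions, 7.99% of the 11244, lay at lncRNA ends only. These had median heights of 73 in the intermediate, 85 in iPSC, 78 in ESC and 74 in MEF, against 99, 114, 114 and 113 at protein-coding ends. Snhg genes, the hosts of small nucleolar RNAs, had an always open end in 13 of 17 cases, against 19% of all lncRNA genes. Snhg8 was the tallest of them by mean rank, with 522 in the intermediate, 669 in iPSC, 307 in ESC and 286 in MEF. Genes named as opposite-strand transcripts had one in 77 of 209 cases, and host genes of microRNAs in 5 of 14, among them Mir17hg and Mir22hg.

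Many regions served several genes, and a few lay at 3′ ends. One gene end was touched by 7864 regions, 69.9%, and 2 or more by 3380, 30.1% (29.2 to 30.9), of which 1933 touched 2 or more protein-coding genes. The region with the most genes touched 25 gene ends, most of them of the gamma-protocadherins, cell-surface proteins of neurons that share their 3′ end, with peak heights of 41 in the intermediate, 48 in iPSC, 86 in ESC and 40 in MEF. The Ugt1a cluster of glucuronidation enzymes shares its last exons too, and its region touched 9 genes. A 3′ end and no start lay within 1 kb of 445 regions, 3.96% (3.61 to 4.33). These had median heights of 63 in the intermediate, 61 in iPSC, 59 in ESC and 56 in MEF and a median width of 1450 bp, against 102, 116, 117 and 118 and 1810 bp for regions with a start within 1 kb.

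Of the 11244 regions, 1185 were 3 kb or wider. The widest, of 21570 bp, covered Fcgr3, an Fc receptor (chromosome 1, 171063301 to 171084870), with 31 peaks in the intermediate, 24 in iPSC, 28 in ESC and 36 in MEF. The next, 15790 bp at Frmd8 and the nuclear lncRNA Neat1 (chromosome 19, 5835231 to 5851020), held 22, 4, 13 and 29 peaks. The Ugt1a region, of 13680 bp, held 25 peaks in the intermediate, 1 in iPSC, 2 in ESC and 29 in MEF. A single peak of a library thus sufficed to make such a region always open. Crlf2 and Atp5d with Midn followed, at 10040 and 9650 bp.

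The limits of the class can be read from regions just beside them. Just inside 1 kb lay regions at Bhlhe41 (1000 bp from the gene end), 6030407O03Rik (996) and Itpkb (992), and just outside those nearest to Mpnd, Mxra8 and Dact3 (1001 bp each) and Ccdc85c (1002 bp). Bhlhe41 had peak heights of 76 in the intermediate, 92 in iPSC, 58 in ESC and 71 in MEF, and Ccdc85c had 244, 188, 253 and 242. In number of libraries, the nearest neighbours are the 3151 gene-end regions open in 3 of them. They lacked a peak in MEF in 1448 cases, in the intermediate in 1031, in iPSC in 516 and in ESC in 156.

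Genes that missed the class for want of 1 library were counted by the library that lacked the peak. Over all protein-coding genes, an end region in the other 3 libraries and none in the intermediate was found for 654 of 20661 (3.17%), none in iPSC for 316 (1.53%), none in ESC for 72 (0.348%) and none in MEF for 599 (2.90%). In the 12 upkeep lists the counts were 7 for the intermediate, 18 for iPSC, 0 for ESC and 0 for MEF, of 548 genes. Among mitochondrial ribosomal proteins, 8 of the 9 genes outside the class lacked iPSC alone. Missing peaks also moved with base composition. Among starts within a region of the other 3 libraries, the share lacking in MEF was 15.5% (13.5 to 17.7) under 50% G+C, against 3.43% (2.81 to 4.17) at 70% or more. In the intermediate it was 8.72% against 5.07%, in iPSC 4.74% against 1.07%, and in ESC 1.99% under 50%, against 0.24% at 60 to 70%. A region without a listed peak was not measured as closed, since depth is not known for any list.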

How the data were processed

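Open chromatin was measured by ATAC-seq in the intermediate, iPSC, ESC and MEF, with 1 library each. Bowtie2, MACS 1.4.2-1, Picard, CASAVA 1.8.2 and the build mm10 stand in the submitters' processing notes, which assign them no role. Their settings were not given in the sources used here. Each library has 1 deposited peak list whose columns, per the file headers, are start, end, height and summit position. The deposited height is a signal per peak, not scaled to library size, and read totals were not used here, so the depth is unknown. Neighbouring peaks of a list are divided sub-peaks of one stretch, which is why gaps of at most 10 bp were joined.

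Scripts in Python 3.11.15 with pandas 2.3.3, numpy 2.4.6, scipy 1.17.1 and matplotlib 3.10.9 joined the peaks, and the joining was tested on simulated data. Gene ends came from RefSeq genes of GRCm38.p6, whose table has no strand, so either end was used; starts and strands came from RefSeq promoters of 300 bases, on hand for 25747 genes. A region's height in a library is that of its tallest peak. Wilson 95% intervals stand beside shares and cover only the counting error of regions, genes or promoters; genes and promoters that share a region are not independent. Since each group has 1 library, no test was made. Gene names in the text follow a rule: the 10 regions of highest mean rank, the 5 furthest above and below in each library among those nearest to a protein-coding gene, the 5 with the most genes, the 5 widest, the tallest of each of 25 lists and all members or non-members where 5 or fewer, and 4 on either side of 1 kb. Some genes that this rule names are not reported here. Other genes of the small lists, the lncRNA genes, the symbol families and the genes given for their roles were chosen after their values were seen. The regions, gene lists and motifs were chosen with earlier results of these data known. Alternatives changed the joining, the window, the peaks used, the genes, the promoter window and the height, and their effect is given at the end.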

Additional observations from a re-analysis of the deposited data

How the results depend on the processing

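With 1 library per group no replicate could be left out. No paired analysis was possible because each group has 1 library and no result comes from a test. Shares counted as unchanged within their interval and counts within 1.5 times. Medians counted as unchanged if they moved by less than the standard deviation of the values behind them. Of the main results under alternatives, 112 values were unchanged by these rules and 24 were not. For single motifs and library counts 16 were and 34 were not. The rule for medians is loose. Median CpG per promoter went from 20 to 8 in the 100 bases before the start and counted as unchanged. The values that moved are given in the order share of always open regions at gene ends, share of protein-coding genes, share of lncRNA genes. With a window of 500 bp they were 61.2, 53.6 and 17.6%, regions with 2 or more gene ends made up 27.8%, and 1 germline gene was in the class. With a window of 2.5 kb they were 69.7, 58.3 and 22.7%, regions with 2 or more gene ends 36%, regions next to a start 75.5%, and germline genes 4. With the taller 50% of each list they were 67.9, 49.5 and 15.8%, with 9 fibroblast genes, 7 Hox genes and 1 blood or endothelial gene. With a summit of every library in the window they were 59.1, 52.1 and 16%. With protein-coding ends only the first was 58.7%, and with X the second was 54.1%. A start inside the region, an alternative chosen after seeing the data, gave 74.2%. Taking the peak nearest to the gene end, the counts of regions 50 points apart came to 1780 over all libraries and both directions, against 1081 with the tallest peak. A region that stood apart in several libraries was counted once for each. The cause of these changes was not tested. In the 100 bases before the start fewer promoters held each motif, a window shorter by construction, at 44% for SP1 and 0.461% for YY1. Leaving out the 5 tallest regions, also chosen after seeing the data, moved no count by over 1.5 times. Unknown depth limits every statement on a missing peak.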

Other observations

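The X chromosome was left out of the class and gave 395 always open regions of 4365, of which 305, 77.2%, lay at gene ends. An always open gene end was found at 308 of its 966 protein-coding genes, 31.9%, against 55.2% on chromosomes 1 to 19.

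Hairpins of 78 of 919 microRNA genes lay inside always open gene-end regions. No background share was computed for hairpins, so whether these are many or few was not tested. The hairpins inside include Mir17, Mir18, Mir19a and Mir20a of one cluster, which promotes cell growth, and Mir130b with Mir301b, Mir191 with Mir425, and Mir125a with Mirlet7e, pairs that lie side by side. These were chosen from the list after it was seen.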
